A study of Homo sapiens with 18 samples.

Results

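The zinc-dependent histone deacetylases HDAC1 to HDAC10 were followed at the level of transcript and of chromatin accessibility. The members were taken by gene symbol, and all 10 were found among the 28395 genes of the RNA-seq tables. For accessibility, every ATAC-seq region that overlapped one of these genes or the 5 kb on either side was taken, which gave 64 of 85549 regions.

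The study introduced the transcriptional corepressor BASP1 into K562, a human erythroleukaemia line. V-K562 cells are the control and lack BASP1, B-K562 cells express wild-type BASP1, and G-K562 cells express BASP1-G2A, a mutant that cannot be N-terminally myristoylated. The study describes its K562 derivatives as stably transfected pools, not clones, kept under G-418. A difference between lines thus holds the introduced protein together with anything else by which the pools differ, and these cannot be told apart. Each line gave 3 RNA-seq and 3 ATAC-seq libraries, described as biological triplicates, and both BASP1 lines are compared with the same V-K562 libraries.

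Histone deacetylases remove acetyl groups from lysines of histone tails and of other proteins, and on histones this mostly goes with closed chromatin and low transcription. Class I enzymes (HDAC1, HDAC2, HDAC3 and HDAC8) are mainly nuclear, and the first 3 act inside corepressor complexes. Class IIa enzymes (HDAC4, HDAC5, HDAC7 and HDAC9) have little activity of their own, bind MEF2 transcription factors and move between nucleus and cytoplasm. Class IIb (HDAC6 and HDAC10) acts mostly in the cytoplasm. HDAC1 is of interest for BASP1 because the lipid PIP2, which myristoylated BASP1 binds, assists its recruitment to promoters.

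The 9 RNA-seq libraries had summed normalized counts between 32342190 and 33229588, and the 9 ATAC-seq libraries had between 47111 and 55570 called peaks. BASP1 itself stood at 5 to 7 normalized counts in the control line, 6294 to 6965 in the B-K562 line and 8124 to 12538 in the G-K562 line, which fits the labels. Erythroid genes were present in every library. HBG1, HBG2, HBE1, HBZ, GATA1, TAL1, KLF1 and LMO2 all stood above V-K562 in B-K562 and below it in G-K562 (for LMO2 log2 fold changes of 0.40 and -1.26), and TFRC was higher in both. Among markers of other cells MS4A1 was at 0 in every library and CD3E and CD14 did not exceed 29, while EPCAM (1129 to 1731) and COL1A1 (599 to 1297) were not low. The erythroid genes thus moved in the same direction as the class I deacetylases described next, and their part in those results was not tested. In these bulk libraries, fewer cells that express a gene and less RNA per cell cannot be told apart.

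The sequences below are the stretches to which the accessibility results refer. Promoter windows run from 250 bases before to 50 after an annotated start and come from RefSeq (GRCh38.p14), and peak windows are 300 bases around a summit, read from the GRCh38 genome. RefSeq windows were found for 9 of the 10 members (19 windows in all). Capitals mark matches, on either strand, to the motif GCGNGGGNG of the WT1 and EGR type, to the GC box GGGCGG or to AGATAA, a motif of the GATA type, and the first 2 of these can overlap. Among all 35116 promoter windows of this length, 18.8% hold the WT1 and EGR motif, 45% the GC box and 10.3% the GATA motif, against 4, 8 and 3 of the 19 member windows. A motif of the YY1 type, AANATGGCG, is held by 3.19% of promoter windows and was found in 0 of the 19. A match is a description of letters and not of binding.

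The upstream HDAC9 start is shown because a peak was called there in G-K562 only.
HDAC9 upstream promoter, chr7:18086575-18086874, plus strand: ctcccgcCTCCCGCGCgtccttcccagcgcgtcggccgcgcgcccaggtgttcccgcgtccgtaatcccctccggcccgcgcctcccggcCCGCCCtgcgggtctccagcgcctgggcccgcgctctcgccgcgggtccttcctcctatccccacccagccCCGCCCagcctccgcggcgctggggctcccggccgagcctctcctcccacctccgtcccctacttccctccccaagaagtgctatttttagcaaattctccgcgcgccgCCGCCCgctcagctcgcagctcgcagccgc
A start further into HDAC9 is shown for contrast, since no called peak overlapped it in any library.
HDAC9 downstream promoter, chr7:18495499-18495798, plus strand: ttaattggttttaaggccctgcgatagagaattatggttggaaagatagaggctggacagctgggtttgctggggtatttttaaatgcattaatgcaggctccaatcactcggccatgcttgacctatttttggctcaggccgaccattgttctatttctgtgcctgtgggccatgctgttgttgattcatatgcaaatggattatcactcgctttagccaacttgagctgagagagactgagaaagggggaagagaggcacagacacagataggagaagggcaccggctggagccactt
The HDAC3 and HDAC10 promoters are shown because accessibility at these starts was higher in G-K562.
HDAC3 promoter, chr5:141636800-141637099, minus strand: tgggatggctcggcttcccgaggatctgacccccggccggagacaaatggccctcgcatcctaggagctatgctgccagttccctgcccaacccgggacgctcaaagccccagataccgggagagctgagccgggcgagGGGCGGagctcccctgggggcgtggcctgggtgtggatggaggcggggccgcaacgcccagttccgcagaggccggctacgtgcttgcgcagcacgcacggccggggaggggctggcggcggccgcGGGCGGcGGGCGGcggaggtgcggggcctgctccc
HDAC10 promoter, chr22:50251216-50251515, minus strand: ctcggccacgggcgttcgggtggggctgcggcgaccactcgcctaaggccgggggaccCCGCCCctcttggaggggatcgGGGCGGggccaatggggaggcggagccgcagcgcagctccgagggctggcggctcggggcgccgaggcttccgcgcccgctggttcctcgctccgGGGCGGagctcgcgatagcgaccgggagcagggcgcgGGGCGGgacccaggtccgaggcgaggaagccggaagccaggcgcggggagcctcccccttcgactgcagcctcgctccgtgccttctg
The next windows surround the HDAC4, HDAC6 and HDAC8 regions with the largest changes.
HDAC4 intronic peak, chr2:239086315-239086614, plus strand: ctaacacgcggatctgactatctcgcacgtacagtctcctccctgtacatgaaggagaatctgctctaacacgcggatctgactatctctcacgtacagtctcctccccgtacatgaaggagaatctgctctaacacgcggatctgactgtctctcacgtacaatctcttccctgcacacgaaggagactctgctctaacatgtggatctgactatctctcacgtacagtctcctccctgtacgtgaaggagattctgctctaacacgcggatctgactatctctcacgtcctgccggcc
HDAC6 upstream peak, chrX:48800619-48800918, plus strand: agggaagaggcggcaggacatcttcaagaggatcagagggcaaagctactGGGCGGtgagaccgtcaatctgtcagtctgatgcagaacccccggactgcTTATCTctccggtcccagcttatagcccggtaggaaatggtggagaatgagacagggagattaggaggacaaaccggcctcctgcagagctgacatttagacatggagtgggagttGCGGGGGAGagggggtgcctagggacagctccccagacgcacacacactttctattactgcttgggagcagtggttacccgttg
HDAC8 intronic peak, chrX:72366187-72366486, plus strand: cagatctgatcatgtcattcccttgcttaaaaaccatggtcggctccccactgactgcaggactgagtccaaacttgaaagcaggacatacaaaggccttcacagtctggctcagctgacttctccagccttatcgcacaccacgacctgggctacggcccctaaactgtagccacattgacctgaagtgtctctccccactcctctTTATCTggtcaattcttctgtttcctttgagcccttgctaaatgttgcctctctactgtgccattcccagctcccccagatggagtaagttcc

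The HDAC9 upstream window is 75% G and C with 1 match to the WT1 and EGR motif and 3 GC boxes, whereas the downstream window is 47.3% G and C and holds none of the motifs. The HDAC10 window held 4 GC boxes and the HDAC3 window 3. The HDAC6 peak window held 1 match each to the WT1 and EGR motif, the GC box and the GATA motif, which are found in 8.79%, 24.2% and 23.4% of the windows of all 85549 regions. The HDAC8 window held 1 GATA motif. The HDAC4 window held none of the motifs and is a tandem repeat, with 88.9% of its bases identical to those 65 bases further on. The next highest value of this kind among all windows examined at these genes was 44%.

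Transcript levels differed widely among the members. Divided by the length of the merged exons in kb, HDAC1 was highest in V-K562 with 3724 ± 79 normalized counts per kb (SD, n = 3), and HDAC3 (2304 ± 142) was next. HDAC6 (1151), HDAC7 (931), HDAC2 (775), HDAC5 (765), HDAC10 (537), HDAC8 (143), HDAC4 (48.05) and HDAC9 (0.77) followed. In this order only HDAC2 and HDAC5 had overlapping values. In B-K562 HDAC2 (1089 per kb) was the third and HDAC5 (330) the seventh, with no overlap between neighbours. In G-K562 HDAC7, HDAC10 and HDAC6 (984, 970 and 909 per kb) overlapped in turn, as did HDAC5 and HDAC2, and HDAC9 (64.6) was above HDAC4 (51.69).

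As a share of the summed per-kb levels of the 10 members, class I made up 66.9% ± 1.5 in V-K562, 76.3% ± 0.7 in B-K562 and 59.8% ± 1.5 in G-K562 (SD, n = 3). The ranges did not overlap, from 65.25% to 68.12%, 75.51% to 76.92% and 58.62% to 61.47%. Class IIa made up 16.8%, 12.5% and 19.6%, and class IIb 16.3%, 11.2% and 20.6%, in the same order of lines. The balance between the classes at the RNA level therefore lay on opposite sides of V-K562 in the 2 BASP1 lines. The shares depend on one another, so that a fall of 1 class raises the shares of the others. In G-K562 class IIb combined HDAC6 below V-K562 (909 against 1151 per kb) with HDAC10 above it (970 against 537).

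The first question is how the members in B-K562 and in G-K562 each differed from V-K562. In B-K562, 5 of the 9 members tested were higher (HDAC1, HDAC2, HDAC3, HDAC7 and HDAC8), 3 were lower (HDAC4, HDAC5 and HDAC6) and HDAC10 did not pass. Changes were common in the transcriptome: 38.6% of 14958 genes tested were higher and 37.2% lower at an adjusted p of at most 0.05 (limma-trend on log2(value + 1), Benjamini-Hochberg over all genes tested). With at least a 2-fold change, HDAC5 alone was called, against 14.1% of genes lower and 6.46% higher. In G-K562, 2 of 10 members tested were higher (HDAC9 and HDAC10), 6 were lower (HDAC1, HDAC2, HDAC3, HDAC5, HDAC6 and HDAC8), and HDAC4 and HDAC7 did not pass, against 33.5% of 15271 genes higher and 33.3% lower. HDAC9 alone was called at 2-fold, against 8.81% of genes higher and 10.3% lower. Values of the lines compared were fully separate for 9 of 9 members in B-K562 and 8 of 10 in G-K562, against 77.8% and 70.2% of all genes tested, so that most single members behaved as most genes did. HDAC9 entered the G-K562 comparison through its G-K562 values alone, which fixes that it had to differ.

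**Figure D1:**
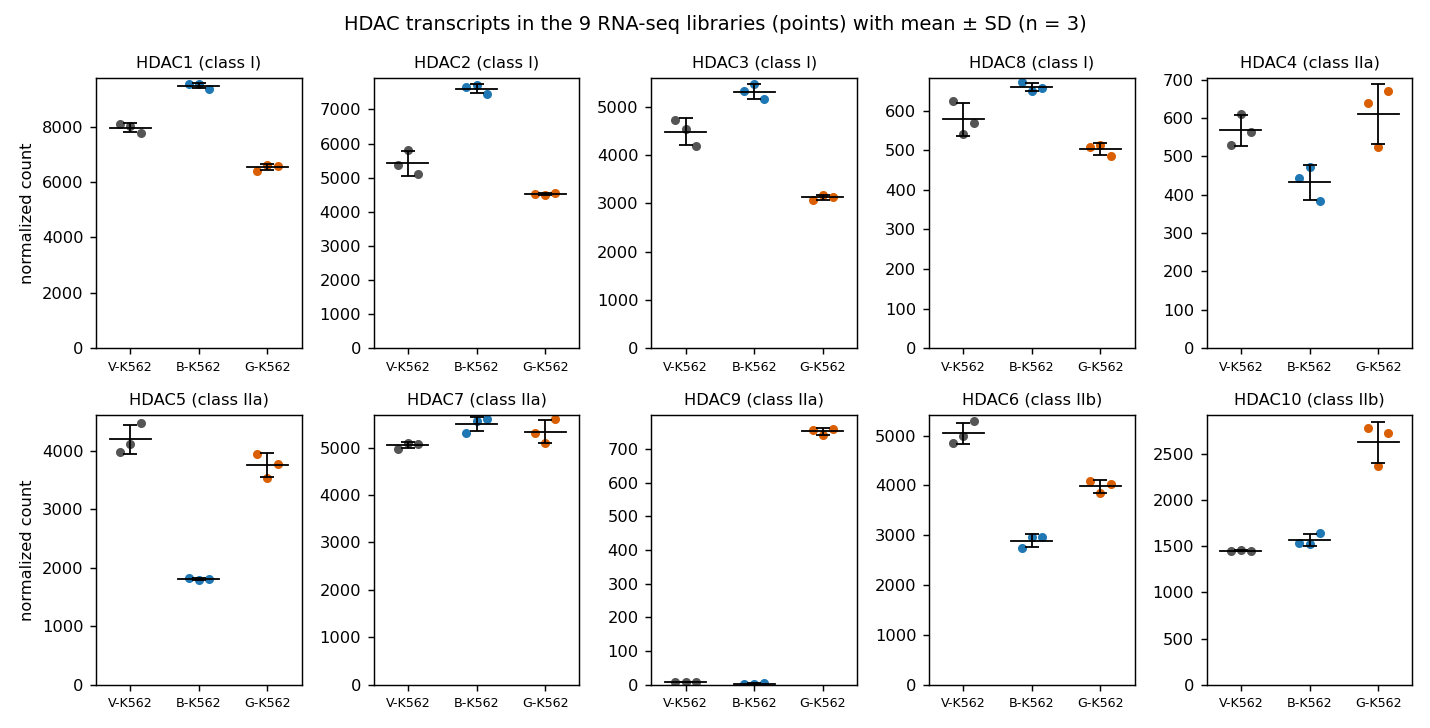
Normalized RNA-seq counts (y axis, linear from 0, a separate scale for each gene) of the 10 HDAC transcripts in each of the 3 V-K562, B-K562 and G-K562 libraries; points are libraries, and lines with bars are mean ± SD (n = 3). The 4 class I genes are highest in B-K562 and lowest in G-K562, HDAC5 lies between 1788 and 1821 in B-K562, and HDAC9 is at 9 or below outside G-K562.

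HDAC1 (chr1:32292107-32333628, plus strand), the catalytic subunit of the NuRD, SIN3 and CoREST complexes together with HDAC2, had 8083, 8032 and 7769 normalized counts in V-K562. It had 9563, 9527 and 9377 in B-K562 and 6414, 6623 and 6581 in G-K562. All B-K562 libraries lay above and all G-K562 libraries below all V-K562 libraries. The log2 fold change was 0.25 (SE 0.04, adjusted p = 1.09e-04) in B-K562 and -0.28 (SE 0.05, adjusted p = 4.23e-04) in G-K562. On the linear scale this is 1.19 times the V-K562 level in B-K562 and 0.822 times in G-K562.

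HDAC2 (chr6:113936156-113971195, minus strand), the close paralogue and partner of HDAC1, had 5357, 5809 and 5095 in V-K562. It had 7658, 7720 and 7464 in B-K562 and 4531, 4477 and 4541 in G-K562. The lines again did not overlap, and the rise in B-K562 was the largest among the members, with a log2 fold change of 0.49 (SE 0.05, adjusted p = 1.32e-06). In G-K562 it was -0.26 (SE 0.06, adjusted p = 0.00224). For the 7 other genes tested within 2 Mb of HDAC2 the median log2 fold change was -1.41 (B-K562) and -0.65 (G-K562), so that HDAC2 rose in B-K562 in a neighbourhood whose genes were lower.

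HDAC3 (chr5:141620876-141636856, minus strand), the enzyme of the NCoR and SMRT complexes, had 4721, 4544 and 4178 in V-K562. It had 5323, 5462 and 5157 in B-K562 and 3069, 3171 and 3139 in G-K562. The lines did not overlap. The log2 fold change was 0.25 (SE 0.05, adjusted p = 7.68e-04) in B-K562 and -0.52 (SE 0.06, adjusted p = 1.35e-05) in G-K562, the largest fall of a class I member. The B-K562 difference of HDAC3 did not pass under quantile normalization (adjusted p = 0.071).

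HDAC8 (chrX:72329516-72573103, minus strand), a class I enzyme that acts without a large complex and deacetylates cohesin, was less abundant. It had 624, 541 and 570 in V-K562, 672, 651 and 658 in B-K562, and 509, 513 and 486 in G-K562. The lines did not overlap, but the gaps were narrow. The log2 fold change was 0.19 (SE 0.07, adjusted p = 0.0209) in B-K562 and -0.20 (SE 0.08, adjusted p = 0.0455) in G-K562. The B-K562 call was lost without V-K562 replicate 2 (adjusted p = 0.0887) or B-K562 replicate 1 or 3, and the G-K562 call without any G-K562 library or V-K562 replicate 1 or 3 (adjusted p up to 0.164, without V-K562 replicate 1).

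Class IIa did not move as 1 group. HDAC5 (chr17:44076753-44123646, minus strand), a signal-responsive repressor of MEF2 targets, had 3992, 4127 and 4480 in V-K562. It had 1821, 1788 and 1816 in B-K562 and 3949, 3544 and 3775 in G-K562. B-K562 stood far below both other lines, with a log2 fold change of -1.21 (SE 0.05, adjusted p = 1.7e-10). The G-K562 libraries lay just below the V-K562 libraries, with a log2 fold change of -0.16 (SE 0.06, adjusted p = 0.0433), and that call was lost without any 1 of 4 single libraries (adjusted p up to 0.159, without V-K562 replicate 3; the others were V-K562 replicate 2 and G-K562 replicates 2 and 3).

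HDAC4 (chr2:239048168-239401647, minus strand), another MEF2 repressor, stood between 529 and 611 in V-K562 (mean 567). It had 443, 472 and 382 in B-K562 and 638, 523 and 670 in G-K562. B-K562 was below the other lines, with a log2 fold change of -0.39 (SE 0.09, adjusted p = 0.00108). V-K562 and G-K562 overlapped, and the difference of 0.10 had a 95% interval from -0.12 to 0.32 (adjusted p = 0.401).

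HDAC7 (chr12:47782722-47820612, minus strand), best known from endothelial cells and thymocytes, had 4980, 5107 and 5072 in V-K562. It had 5318, 5559 and 5609 in B-K562 and 5317, 5101 and 5599 in G-K562. The log2 fold change was 0.12 (SE 0.04, adjusted p = 0.0227) in B-K562, and the call was lost without B-K562 replicate 2 or 3 (adjusted p of 0.097 and 0.103). Under quantile normalization its direction turned (-0.026, not past the threshold). In G-K562 it was 0.08 with an interval from -0.04 to 0.20 (adjusted p = 0.226), with overlapping libraries. HDAC7 was the only member whose exons share bases with another gene of the tables, 32 bases with SLC48A1 on the opposite strand.

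HDAC9 (chr7:18086942-18999521, plus strand), a class IIa enzyme with several annotated starts, was nearly absent from V-K562 and B-K562. It had 9, 9 and 9 normalized counts in V-K562, 1, 3 and 5 in B-K562, and 756, 740 and 759 in G-K562. The G-K562 libraries stood apart from all others, with summed counts 83.5 times those of V-K562 (exact 95% interval 57.25 to 127) and 251 times those of B-K562 (131.8 to 549). The intervals cover counting error only and take 1 normalized count as 1 read. On the log2(value + 1) scale the change against V-K562 was 6.23 (SE 0.13, adjusted p = 6.42e-11), which describes a gene that was tested only because it is high in G-K562. It remained a low member in G-K562, at 64.6 counts per kb against 3059 for HDAC1. B-K562 against V-K562 was not tested, as fewer than 3 of the libraries reached 10.

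HDAC6 (chrX:48801896-48824976, plus strand), the cytoplasmic deacetylase of alpha-tubulin, had 4861, 4996 and 5283 in V-K562. It had 2738, 2961 and 2964 in B-K562 and 4086, 3839 and 4030 in G-K562. The lines did not overlap, and G-K562 lay between the others. The log2 fold change was -0.81 (SE 0.05, adjusted p = 6.55e-09) in B-K562 and -0.34 (SE 0.06, adjusted p = 2.35e-04) in G-K562.

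HDAC10 (chr22:50245183-50251405, minus strand), a polyamine deacetylase, had 1451, 1455 and 1454 in V-K562. It had 1535, 1528 and 1643 in B-K562 and 2781, 2368 and 2729 in G-K562. G-K562 was higher than both other lines, with a log2 fold change of 0.85 (SE 0.07, adjusted p = 8.13e-07). In B-K562 the libraries lay above those of V-K562 without overlap, but the difference of 0.11 (95% interval -0.0017 to 0.22, adjusted p = 0.0684) did not pass. For the 34 other genes tested within 2 Mb the median log2 fold change in G-K562 was 0.37, below that of HDAC10, and their part in its rise was not tested.

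**Figure D2:**
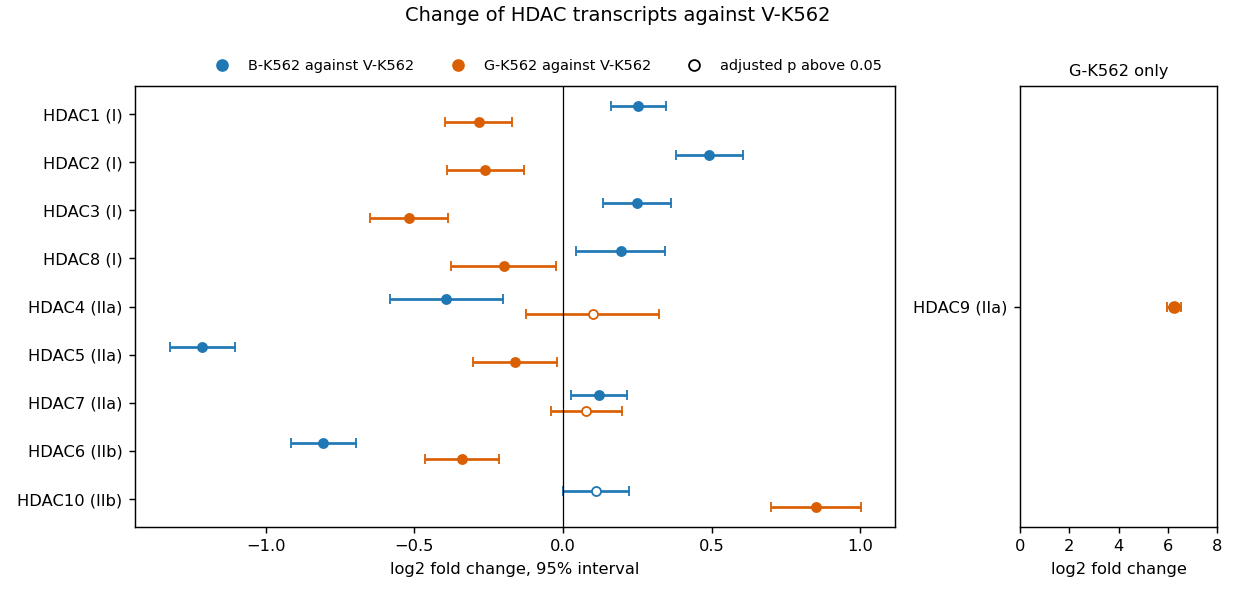
Log2 fold change of each HDAC transcript against V-K562 (x axis) with its 95% interval from limma-trend (n = 3 libraries per line), ordered by class (in brackets); filled points passed an adjusted p of 0.05, and HDAC9 has a panel and scale of its own. The class I genes lie to the right of 0 in B-K562 and to the left in G-K562, HDAC5 and HDAC6 are lowest in B-K562, and HDAC10 and HDAC9 are high in G-K562.

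The direct comparison of G-K562 with B-K562 asks which members differed between the 2 forms of BASP1. All 4 class I members were lower in G-K562 and 5 members were higher (HDAC4, HDAC5, HDAC6, HDAC9 and HDAC10), against 38.1% of 15521 genes higher and 40.5% lower. Values were fully separate for 9 of 10 members, against 81% of genes. The log2 differences of class I were -0.54 (SE 0.04, adjusted p = 2.08e-08) for HDAC1, -0.75 (SE 0.05, adjusted p = 4.43e-09) for HDAC2, -0.76 (SE 0.05, adjusted p = 4.68e-09) for HDAC3 and -0.39 (SE 0.07, adjusted p = 1.09e-04) for HDAC8. HDAC5 was 2.07-fold higher in G-K562 (log2 difference 1.05, SE 0.05, adjusted p = 3.37e-10). With HDAC9 it was the member called at 2-fold, against 17.4% of genes higher and 12.5% lower. HDAC9 is in each of these counts, but it met the filter only through its G-K562 values, which fixes that it had to differ. HDAC10 (0.74, SE 0.06), HDAC4 (0.49, SE 0.10) and HDAC6 (0.47, SE 0.05) were higher with adjusted p of 5.61e-08, 5.08e-04 and 1.06e-06. HDAC7 did not pass, with a difference of -0.04 and an interval from -0.14 to 0.06 (adjusted p = 0.419).

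The accessibility of the members was read from the pileup at peak summits, that is the number of ATAC-seq tags over the highest point of a called peak. The 64 regions were spread unevenly over the genes, with 18 at HDAC4, 8 each at HDAC1 and HDAC8, 7 at HDAC5, 6 at HDAC9, 5 at HDAC7, 4 each at HDAC3 and HDAC10 and 2 each at HDAC2 and HDAC6. By the place of the summit 37 lay in introns, 10 downstream, 8 at a transcription start, 6 upstream, 2 in coding exons and 1 in a UTR exon. Some lay at the start of a neighbouring gene and are still part of the counts below. A region downstream of HDAC3, called higher in both BASP1 lines, was 81 bases from the DIAPH1 start. Downstream of HDAC1, a region called lower in G-K562 was 87 bases from the MARCKSL1 start. A peak was called in all 9 libraries in 28 regions and in a single library in 10. A library without a called peak was not shown to lack tags. For the tests libraries were scaled to each other, and such values, as well as scaled values below 17, were set to 17. Fold changes there therefore differ from the ratio of the pileups.

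In B-K562, 4 of the 46 member regions tested were more accessible than in V-K562 and 1 less, against 8.54% and 16.5% of 52204 regions, and with a 2-fold change 0 and 1 were called, against 1.51% and 6.1%. In G-K562, 10 of 47 were more accessible and 13 less, against 15.9% and 25.9% of 54213 regions, and 1 and 7 passed with a 2-fold change, against 2.85% and 13.1%. Between G-K562 and B-K562, 5 of 50 were higher and 11 lower in G-K562, against 12.2% and 15.5% of 60181 regions, and at 2-fold 1 and 6, against 4.21% and 8.47%. In B-K562 the lower calls were thus fewer among member regions than the share over all regions, a difference that was not tested. A region with no called peak in 1 of the lines passed the filter only through libraries of the other lines, which favoured a call. Calls of such regions add to these counts without being a finding. Not every such region was called: an HDAC8 intronic region with 22, 19 and 20 tags in G-K562 alone did not pass against V-K562 (log2 fold change 0.07). The split between higher and lower depended on the scaling: without it, 8 and 0 regions were called in B-K562, 15 and 8 in G-K562, and 11 and 9 between the lines.

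At the starts, all 10 members had a region within 1 kb of the annotated 5′ end, and for all but HDAC9 a peak was called there in all 9 libraries. In the order V-K562, B-K562 and G-K562, the starts of HDAC1 (104 to 133 tags, 159 to 182 and 152 to 192), HDAC2 (82 to 129, 128 to 146 and 140 to 177), HDAC5 (109 to 140, 119 to 140 and 124 to 162) and HDAC7 (57 to 113, 103 to 109 and 108 to 128) were called in no comparison. The HDAC5 start thus gave no call in B-K562, where its transcript stood at 0.431 times the V-K562 level.

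HDAC9 had no called peak at its upstream start in V-K562 and B-K562, and summit pileups of 24, 34 and 35 in G-K562 (chr7:18086196-18087111). The G-K562 peaks passed against V-K562 (adjusted p = 0.0182) and against B-K562 (adjusted p = 0.00835), but the region was tested only for its G-K562 peaks and its fold has no measured denominator, and leaving out G-K562 replicate 2 or 3 raised the first p to 0.0596 and 0.0697. HDAC9 is thus the member at which both the transcript and the peak at the start were found in G-K562 and were low or not called elsewhere. Within the gene, an intronic region 90.6 kb from that start had 66, 43 and 47 tags in V-K562, 36, 29 and 41 in B-K562, and 40 in a single G-K562 library (log2 fold change -1.37, SE 0.32, adjusted p = 0.0123 in G-K562). That call was lost without G-K562 replicate 2 or 3 or V-K562 replicate 1 (adjusted p up to 0.0632). The G-K562 libraries without a peak there entered at the floor of 17.

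The HDAC3 start (chr5:141636302-141637184) had 70, 91 and 78 tags in V-K562, 129, 128 and 132 in B-K562, and 177, 149 and 154 in G-K562. Both BASP1 lines were above V-K562 without overlap, with log2 fold changes of 0.55 (SE 0.12, adjusted p = 0.0118) and 0.65 (SE 0.12, adjusted p = 0.00486). The transcript rose in B-K562 and fell in G-K562, so that the start was more open in both while the RNA moved in opposite directions. When the mean pileup over the interval replaced the summit, neither call passed (adjusted p of 0.244 and 0.186).

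The HDAC10 start (chr22:50251031-50251549, a position that GENCODE also places within MAPK12) had 27, 42 and 38 tags in V-K562, 50, 69 and 90 in B-K562, and 61, 89 and 78 in G-K562. Again both BASP1 lines were above V-K562, and only G-K562 passed (log2 fold change 0.73, SE 0.23, adjusted p = 0.0343). The HDAC4 start (chr2:239400892-239401944) had 116, 165 and 122 tags in V-K562, 158, 149 and 169 in B-K562, and 225, 230 and 235 in G-K562, and only G-K562 against V-K562 passed (0.44, SE 0.13, adjusted p = 0.0307). The HDAC10 call was lost without G-K562 replicate 2 or 3 or V-K562 replicate 1 or 3 (adjusted p up to 0.112, without G-K562 replicate 2), and the HDAC4 call without any G-K562 library or V-K562 replicate 1 or 3 (adjusted p up to 0.11, without V-K562 replicate 3). Both were also lost when libraries were scaled in bins of GC content (adjusted p of 0.196 and 0.803).

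The HDAC6 start (chrX:48801481-48802580) had 240, 248 and 282 tags in V-K562, 343, 308 and 357 in B-K562, and 272, 277 and 326 in G-K562. It passed only between G-K562 and B-K562 (-0.42, SE 0.09, adjusted p = 0.00731), and not when libraries were left unscaled (adjusted p = 0.138). The HDAC8 start (chrX:72572652-72573310) had 26, 21 and 36, then 40, 38 and 41, then 27, 32 and 27 tags, and was lower in G-K562 than in B-K562 (-0.67, SE 0.22, adjusted p = 0.0485). That call was lost without any 1 of the B-K562 or G-K562 libraries or V-K562 replicate 1 (adjusted p up to 0.147, without G-K562 replicate 3).

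**Figure D3:**
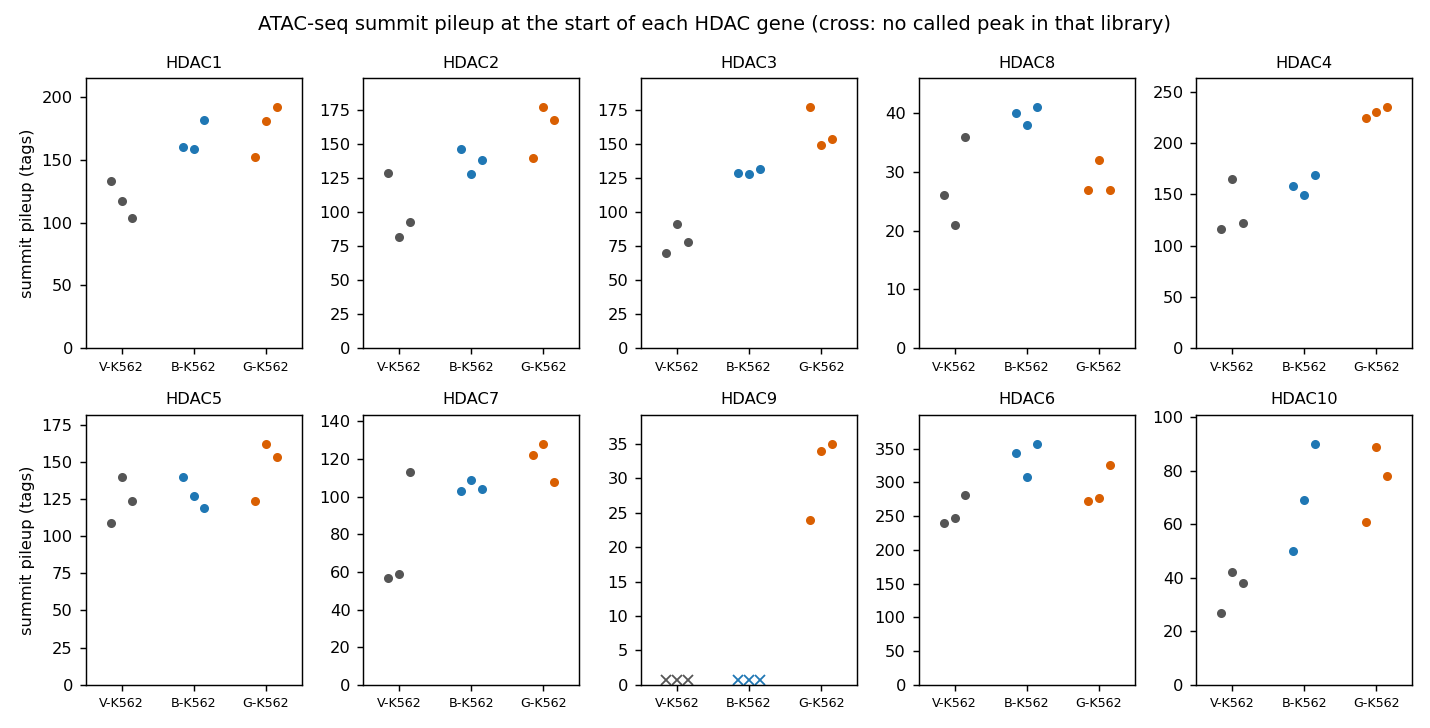
Summit pileup in ATAC-seq tags (y axis, linear from 0, a separate scale for each gene) at the region nearest to the annotated start of each HDAC gene, in each of the 3 libraries per line; a cross marks a library with no called peak, placed near 0 for display. HDAC9 has peaks of 24 to 35 tags in G-K562 only, and the HDAC3 start is above V-K562 in both BASP1 lines.

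Away from the starts the changes were larger. The largest lay in an HDAC4 intron 315.2 kb from the start (chr2:239086235-239086871), the tandem repeat printed above. It had 115, 108 and 108 tags in V-K562, 204, 196 and 198 in B-K562, and 32, 36 and 19 in G-K562. The lines did not overlap, with log2 fold changes of 0.70 (SE 0.08, adjusted p = 0.00234) in B-K562 and -2.26 (SE 0.24, adjusted p = 4.97e-04) in G-K562, and a difference of -2.97 (SE 0.19, adjusted p = 8.3e-06) between them. The region next to it (chr2:239085669-239086060) had 38, 63 and 53 tags in V-K562, 89, 75 and 74 in B-K562 and no called peak in G-K562, so that it was tested in G-K562 only through the other lines and its fold has no measured numerator. The HDAC4 transcript went the other way, lowest in B-K562. Another intronic region, 136.3 kb from the start, had a peak in 1 V-K562 library (26 tags) and in 2 B-K562 libraries (21 and 26). All G-K562 libraries had a peak there (73, 45 and 59), and it was called higher than in V-K562 (1.29, SE 0.27, adjusted p = 0.00751). The region met the filter through its G-K562 peaks, which favoured a higher call. The V-K562 libraries without a peak entered at the floor, so that the size of this fold was set in part by the floor. It is the only member region called higher at 2-fold in G-K562 against V-K562, so that this count carries the same limit.

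The region 1.1 kb upstream of HDAC6 (chrX:48800472-48801032) had 109, 127 and 132 tags in V-K562, 224, 218 and 214 in B-K562, and 91, 83 and 76 in G-K562. It was higher in B-K562 (0.68, SE 0.09, adjusted p = 0.00293) and lower in G-K562 (-0.90, SE 0.12, adjusted p = 0.00128) without overlap. The HDAC6 transcript was lowest in B-K562, so that in B-K562 the transcript and this region moved in opposite directions, while in G-K562 both were lower.

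Among the class I genes, an HDAC8 intronic region 206.8 kb from the start (chrX:72366100-72366667) had 81, 70 and 78 tags in V-K562, 106, 90 and 77 in B-K562, and 18, no peak and 15 in G-K562 (-2.27, SE 0.16, adjusted p = 2.05e-04 in G-K562). An HDAC1 intronic region 16.7 kb from the start (chr1:32308653-32309097) had 68, 66 and 56 tags in V-K562, 60, 63 and 66 in B-K562, and 32, no peak and 20 in G-K562 (-1.76, SE 0.24, adjusted p = 0.00116). G-K562 was below both other lines at both sites, as were the transcripts of these genes. At the HDAC1 site the G-K562 library without a peak entered at the floor of 17. At the HDAC8 site all G-K562 libraries entered at the floor, as the value of 18 tags also fell below 17 after scaling. This fold therefore has no measured numerator.

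At HDAC5 the called changes lay in introns. A region 27.6 kb from the start (chr17:44095566-44096311) had 59, 80 and 62 tags in V-K562, 68, 71 and 62 in B-K562, and 139, 129 and 156 in G-K562, higher in G-K562 than in V-K562 (0.73, SE 0.14, adjusted p = 0.00489) and than in B-K562 (0.85, SE 0.13, adjusted p = 8.89e-04). A region 25.3 kb from the start had 95, 79 and 74 tags in V-K562, 56, no peak and 50 in B-K562 and 81, 60 and 72 in G-K562, and was the only member region called lower in B-K562 (-1.28, SE 0.38, adjusted p = 0.0426). That value rests on the missing peak of B-K562 replicate 2 and was -0.77 without that library, where it still passed, while it did not pass without B-K562 replicate 1 or 3 or any 1 of the V-K562 libraries (adjusted p up to 0.154, without V-K562 replicate 1). Downstream of HDAC7, within SLC48A1, a region (chr12:47777792-47778096) with 56, 61 and 62 tags in V-K562 and 59, 80 and 69 in B-K562 had no called peak in G-K562, and its fold likewise has no measured numerator.

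**Figure D4:**
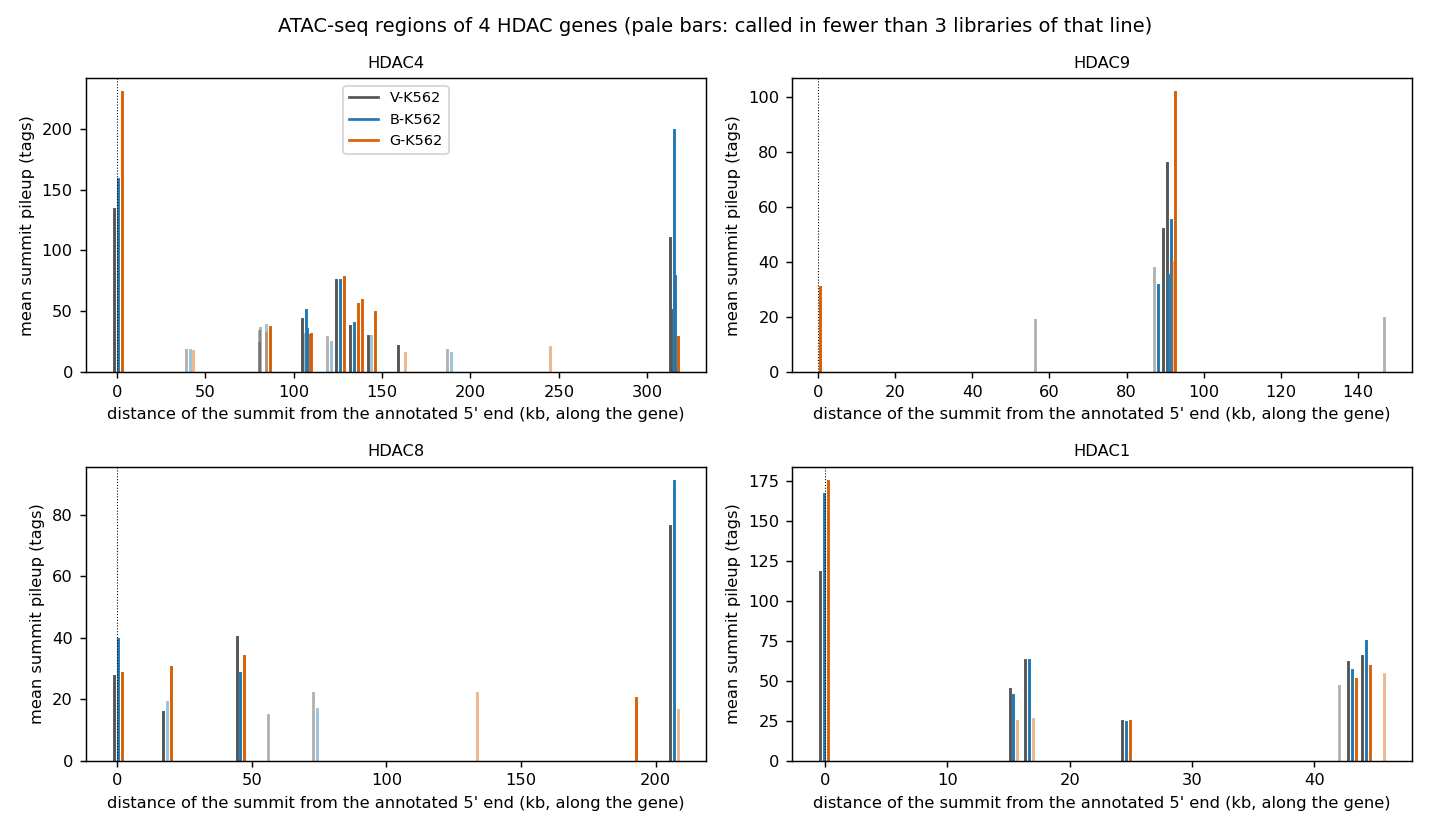
Mean summit pileup in ATAC-seq tags (y axis) of the regions of HDAC4, HDAC9, HDAC8 and HDAC1 against the distance of the summit from the annotated 5′ end in kb (x axis, along the direction of transcription); bars of the 3 lines are set side by side, the mean is over libraries with a called peak, and pale bars had a peak in fewer than 3 libraries. The HDAC4 region at 315.2 kb and the HDAC8 region at 206.8 kb are low in G-K562, and the HDAC9 start has a bar in G-K562 alone.

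The other deacetylases and the partners of the members were read from lists chosen with earlier results of these data known, so that their counts are descriptions. Among HDAC11 and the NAD-dependent SIRT1 to SIRT7, 2 of 8 were higher and 4 lower in B-K562, and 3 higher and 2 lower in G-K562, with median log2 fold changes of -0.16 and -0.14 against 0.01 and 0.00 over all genes. Of all genes tested, 38.6% were higher and 37.2% lower in B-K562, and 33.5% and 33.3% in G-K562, and the counts of every list below are to be set beside these shares. The lowest in B-K562 were the mitochondrial SIRT5 (-1.08, adjusted p = 3.95e-09) and HDAC11 (-0.88, adjusted p = 2.98e-06), and the highest SIRT7 (0.57, adjusted p = 1.09e-06) and SIRT6 (0.30, adjusted p = 3.26e-04). SIRT5 was also lowest in G-K562 (-0.47, adjusted p = 1.59e-04).

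In B-K562, where 38.6% of all genes were higher and 37.2% lower, NuRD and NCoR/SMRT had more higher than lower genes, SIN3 had about the share of higher calls found over all genes, and these differences from all genes were not tested. Of the 11 NuRD subunits 8 were higher and 2 lower (median 0.34), led by GATAD2A (0.96, adjusted p = 2.9e-10) and MBD3 (0.90, adjusted p = 9.87e-10), with GATAD2B (-0.32) and MTA3 (-0.26) lower. Of 6 NCoR/SMRT components, the HDAC3 complex, 5 were higher and 0 lower (median 0.30), led by GPS2 (0.78) and TBL1X (0.49). Of 14 SIN3 components 5 were higher and 2 lower (median 0.02), with BRMS1 (1.03) and BRMS1L (0.92) highest. CoREST went the other way, with 1 of 8 higher (GSE1, 0.60) and 4 lower (median -0.16), among them RCOR2 (-0.79) and PHF21A (-0.76). In the mitotic deacetylase complex MiDAC, 1 of 3 components was lower (TRERF1, -1.56, adjusted p = 1.8e-06). Of 10 lysine acetyltransferases, the enzymes that oppose the members, 8 were higher and 0 lower (median 0.28), led by EP300 (0.56) and CREBBP (0.44). Under quantile normalization the acetyltransferases had 5 higher and 1 lower, NCoR/SMRT 3 and 1, and SIN3 5 lower in place of 2, while SIN3 had 1 lower without V-K562 replicate 2 or B-K562 replicate 3 and NCoR/SMRT had 1 lower without V-K562 replicate 3.

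In G-K562, where 33.5% of all genes were higher and 33.3% lower, these lists were mixed, and counts such as those of NCoR/SMRT lay near these shares. NuRD had 5 of 11 higher and 2 lower (median 0.13), with MTA1 (0.71) and CHD4 (0.64) highest and RBBP7 (-0.45) and RBBP4 (-0.36), the histone-binding subunits that NuRD shares with SIN3, lowest. SIN3 had 6 of 14 higher and 3 lower (median 0.06), with SIN3A (0.70) and BRMS1 (0.68) highest and SAP30 lowest (-1.49, adjusted p = 9.92e-08). CoREST had 5 of 8 higher and 2 lower (median 0.26), with RCOR2 (0.83) and GSE1 (0.81) highest, while KDM1A, the histone demethylase of the complex, fell (-1.02, adjusted p = 4.09e-08). NCoR/SMRT had 2 of 6 higher (NCOR1, 0.37, and GPS2, 0.36) and CORO2A lower (-1.64, adjusted p = 2.47e-09). MiDAC had 2 of 3 higher (MIDEAS, 0.80, and DNTTIP1, 0.25). The acetyltransferases had 5 of 10 higher and 3 lower (median 0.07), with KAT2A lowest (-0.51) and CREBBP highest (0.55).

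Of the 18 class IIa partners, which are the MEF2 factors, 14-3-3 proteins and kinases that control their export, 15 were tested in B-K562 with 9 higher and 3 lower (median 0.21), against 38.6% and 37.2% of all genes. SIK3 (0.85) and YWHAQ (0.65) were highest, and MEF2D (-0.61, adjusted p = 1.09e-07) was among the lower. The protein kinase D gene PRKD1 is counted as lower, but its values of 4.1, 4.1 and 1 in B-K562 lay below the filter and it was tested only through V-K562 (27, 25 and 31), so that it had to differ. With a value of 10 asked of every library, 2 genes were lower. In G-K562, 16 were tested with 7 higher and 2 lower (median 0.26), against 33.5% and 33.3% of all genes, and PRKD1 (82, 58 and 89, log2 fold change 1.41, adjusted p = 8.17e-05) and the 14-3-3 sigma gene SFN (1.24) were highest. The count of 2 lower was 1 without any 1 of the V-K562 libraries or G-K562 replicate 1 or 3, and under quantile normalization. CAMK4 and SIK1 were tested in neither line.

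Between G-K562 and B-K562, 6 of 11 NuRD subunits were lower and 2 higher in G-K562, 7 of 14 SIN3 components lower and 5 higher, 3 of 6 NCoR/SMRT components lower and 0 higher, and 5 of 10 acetyltransferases lower and 0 higher, the medians being -0.32, -0.13, -0.21 and -0.20. CoREST had 6 of 8 higher and 2 lower (median 0.42), MiDAC 3 of 3 higher (median 0.79), the class IIa partners 6 of 16 higher and 7 lower (median -0.05), and the other deacetylases 4 of 8 higher and 1 lower (median 0.11). Of all genes 38.1% were higher and 40.5% lower, which the SIN3 and class IIa partner counts were close to, and the median over all genes was -0.02. RCOR2 (1.62) and TRERF1 (1.71) were among the higher genes and CORO2A (-2.05) and SAP30 (-1.51) among the lower. MEF2B is counted as higher but met the filter only with its G-K562 values, 12, 12 and 19 normalized counts against 0, 1 and 1 in B-K562. PRKD1, also counted as higher, met it in V-K562 (27, 25 and 31) as well as in G-K562, and its B-K562 values of 4.1, 4.1 and 1 lay below it. Under quantile normalization NCoR/SMRT had 2 higher and the acetyltransferases 1, as they had without G-K562 replicate 2, NCoR/SMRT had 1 higher without G-K562 replicate 3 or V-K562 replicate 1, and NuRD had 1 higher gene without any 1 of the B-K562 libraries, G-K562 replicate 1 or V-K562 replicate 2.

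**Figure D5:**
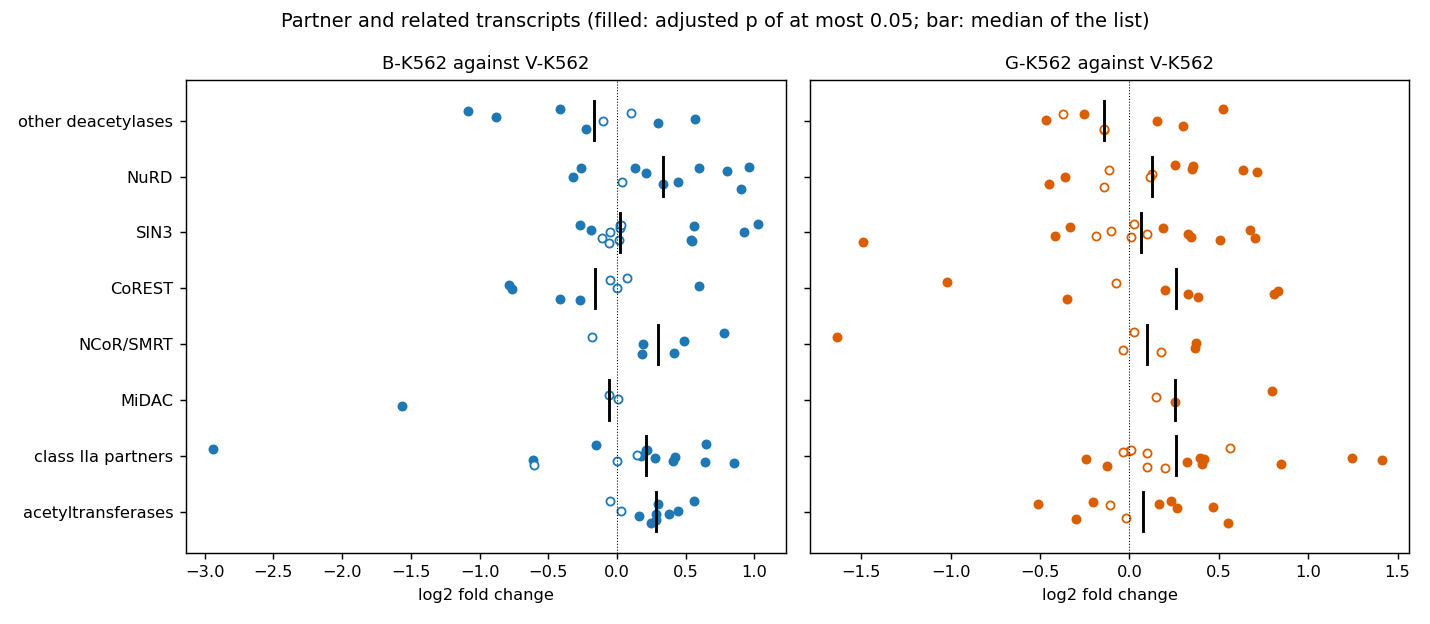
Log2 fold change against V-K562 (x axis) of each tested gene of the partner and related lists in B-K562 (left) and G-K562 (right); filled points passed an adjusted p of 0.05, and black bars are list medians. The NuRD, NCoR/SMRT and acetyltransferase medians are 0.34, 0.30 and 0.28 in B-K562, and 0.13, 0.10 and 0.07 in G-K562.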

How the data were processed

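RNA-seq and ATAC-seq data of the control line and both BASP1 lines (3 libraries each) were analysed. The authors mapped RNA-seq reads to GRCh38 with STAR, removed duplicates and assigned unique pairs to RefSeq genes with Subread. The deposited signal values are normalized counts: the authors scaled the counts of each library with DESeq2 and rounded them, in 1 table per BASP1 line. ATAC-seq reads were mapped with BWA-MEM, and the deposited coverage values are the tags at the summit of each peak called per library with MACS2. The gene length, the other deposited column, is that of the merged exons. The authors' fold changes, p-values and means were not used. Some marker genes are not reported here. Raw depth was not used here, and the number of libraries and their spread set the precision.

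The members and lists were chosen with earlier results of these data known, and all members and, for each, the start region and the largest called change per comparison were named, as were the 2 largest called rises and falls per list in most comparisons. limma 3.58.1 (limma-trend, R 4.3.3) was fitted to log2(value + 1), two-sided with Benjamini-Hochberg adjustment over all features, after checks on simulated data. Genes needed a value of 10 in 3 libraries. For G-K562 against B-K562, B-K562 values were multiplied by 1.017, from the V-K562 columns both tables share, and printed values other than the library sums are on that scale. Overlapping peaks were merged, scaled by a trimmed mean (30% of log ratios, 5% of means), floored at the 5th percentile (17 tags) and tested with a peak in 3 libraries. Other filters, pseudocounts, scalings, a replicate block and leaving out each library were tried.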

Additional observations from a re-analysis of the deposited data

How the results depend on the processing

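Transcript calls of HDAC8 and HDAC5 in G-K562 were kept in 6 and 7 of 13 alternatives (adjusted p up to 0.164 and 0.159), and those of HDAC7 and HDAC8 in B-K562 in 10 of 13. Quantile normalization gave 3 higher members in B-K562 in place of 5 and turned the direction of HDAC7 (-0.026) and HDAC10 (-0.017) in B-K562 and of HDAC7 between G-K562 and B-K562 (0.077), none of them past the threshold, and HDAC3 in B-K562 no longer passed (adjusted p = 0.071). Asking for a value of 10 in every library removed HDAC9 and left 1 higher member in G-K562, and so, by the construction of the filter, did leaving out any G-K562 library. Without a filter HDAC9 was lower in B-K562 (-1.46, adjusted p = 0.0191), and HDAC5 and HDAC8 no longer passed in G-K562 (adjusted p of 0.0672 and 0.0534). Leaving out 1 library gave 3 to 5 higher members in B-K562, and between 1 and 2 higher members in G-K562. Counts for the partner lists in B-K562 moved most under quantile normalization: NuRD 6 higher in place of 8, NCoR/SMRT 3 in place of 5, acetyltransferases 5 in place of 8, and SIN3 5 lower in place of 2 (1 to 3 without 1 library).

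Region counts moved more. In B-K562 (4 higher, 1 lower), no filter on peaks gave 0 lower, no scaling 8 and 0, a peak in every library 7 and 3, scaling in GC bins 2 lower, a pileup of at least 25 gave 3 lower, and leaving out 1 library 0 to 1 lower. In G-K562 (10 and 13), no filter gave 6 and 7, no scaling 8 lower, a peak in every library 7 lower, GC bins 6 higher, and leaving out 1 library 6 to 10 higher and 7 to 11 lower. Between the lines (5 and 11), the 6 libraries alone gave 8 higher, no scaling 11 higher, a peak in every library 6 lower and a pileup of at least 25 gave 3 higher. No scaling moved the median of all regions by 0.12, 0.28 and 0.12 and the share of lower calls from 65.9% to 44.5%, 62% to 36.9% and 56% to 36.9%. The causes of moves not due to a filter were not tested. Regions that were not called were not followed through the alternatives.

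Replicate numbers did not pair the libraries: deviations of same-numbered libraries correlated between -0.15 and 0.26 for RNA-seq and 0.007 and 0.12 for ATAC-seq. With a replicate block HDAC5 and HDAC8 did not pass in G-K562 (adjusted p of 0.0573 and 0.0603), the HDAC8 start did not pass between G-K562 and B-K562 (adjusted p = 0.0769), and 2 regions were lower in B-K562 in place of 1.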
